A study of Mus musculus with 15 samples.

Results

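Vascular leptomeningeal cells (VLMCs), the fibroblast-type cells of the leptomeninges and of the sheaths around large vessels, were examined in single-nucleus RNA-seq of punches enriched for the dorsal hippocampal formation (dHF) of adult female C57BL6/J mice. A nucleus was counted as a member where at least 400 genes were detected, where Col1a2, Slc6a13 and Ranbp3l together had at least 3 unique molecular identifiers (UMIs), where Slc1a2 had at most 5, where Gad1 plus Gad2 had at most 1 and where Slc17a7 had at most 1. The upper limits leave out nuclei with the UMIs of astrocytes, GABAergic neurons and glutamatergic neurons. This rule found 1166 members among 133986 nuclei with at least 400 genes, which is 0.870%, of 134019 barcodes in all. The members were chosen on measured values, so the levels of these 7 genes describe the choice and were not tested.

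The 15 mice fell into 3 groups, and the labels name no transgene or drug for any of them. NP was 6 virgin, nulliparous females age-matched to the dams. Control RE, labelled ControlPP, was 4 females with reproductive experience (pregnancy, birth, lactation and pup care). Stress RE, labelled StressPP, was 5 females with the same experience plus limited nesting and daily separation from the pups in the later part of lactation. Age at collection is not in the labels. The punches were taken from frozen slices and can hold the overlying pia and the vessels of the tissue, and the study removed VLMC clusters as contaminants before its own comparisons. In a punch, more leptomeninges caught by the needle and more such cells in the tissue cannot be told apart. The labels give 3 batches, and batch 1 held 2 NP mice and 1 stress RE mouse but no control RE mouse. Each library is 1 mouse.

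The leptomeninges are the arachnoid and the pia, and their fibroblasts secrete the collagens and laminins of the pial basement membrane, move amino acids and organic anions between cerebrospinal fluid and blood, and make retinoic acid and bone morphogenetic proteins (BMPs). VLMCs follow penetrating vessels into the brain within the perivascular space, outside the layer of mural cells. They are distinct from the contractile mural cells and from the endothelium that lines the vessel. Like most cells they carry glucocorticoid receptors, which raise the transcription of genes such as Fkbp5, Zbtb16 and Tsc22d3 when corticosterone is high.

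Library depth set the precision of what follows. The 15 libraries held between 5787 and 12730 nuclei with at least 400 genes. The median member had between 1806 and 4347 UMIs by mouse, fewer than the median nucleus of its library in every mouse, and each mouse gave between 37 and 119 members and between 95164 and 491218 summed member UMIs. No member had over 5% mitochondrial UMIs. Across libraries, 2211 barcode sequences occurred in more than 1 library, 40 members had such a sequence, and 0 sequences were shared by members of different libraries.

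The 4 marker genes separated the members from other nuclei. Levels are in CPM, the summed UMIs of a gene scaled to a common total of UMIs per mouse, and are given as mean ± SD over 15 mice. Ranbp3l, which encodes a Ran-binding nuclear export factor (GRCm38, chromosome 15, 8967949 to 9067335), was at 2323 ± 465 CPM in members against 7.17 CPM in all other nuclei. Col1a2, the alpha 2 chain of type I collagen (chromosome 6, 4504814 to 4541544), was at 363 ± 59.1 CPM against 1.05 CPM. Slc6a13, the GABA and taurine transporter GAT2 (chromosome 6, 121300227 to 121337733), was at 461 ± 124 CPM against 0.460 CPM. These 3 genes define the members. The fourth marker was not part of the rule. Slc6a20a, a transporter of proline and other imino acids (chromosome 9, 123634770 to 123678885), was at 1725 ± 363 CPM against 5.62 CPM, and its lowest and highest mouse were at 1069 and 2386 CPM.

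Single nuclei carried several of the markers. Of the 1166 members, 91.8% had a UMI of Ranbp3l, 69.6% of Slc6a13, 62.9% of Col1a2 and 88.4% of Slc6a20a, at a median of 3020 UMIs per member. In 31635 oligodendrocyte-like nuclei (at least 3 UMIs of Mog, Mag and Mobp, under the marker cut, median 2825 UMIs), which should lack these transcripts, the shares were 1.16%, 0.0759%, 0.231% and 0.566%. Among members, 471 (40.4%) had a UMI of all 3 rule genes, 506 of a pair of them and 189 of a single one. Ranbp3l alone would have admitted 902 members. Beside the cut, the 227 nuclei with 2 marker UMIs had 344 CPM of Slc6a20a, the 144 with 3 had 854 CPM, the 602 with 8 or more had 2183 CPM, and the 75591 nuclei within the same limits with 0 marker UMIs had 8.58 CPM.

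The sequence just before the start of 3 of these marker genes is shown because they are among the genes by which these nuclei were chosen or recognised. The bases are from RefSeq promoters on GRCm38.p6, 5′ to 3′ on the gene's strand, ending at the outermost annotated start. Capitals mark GGAATG, the core that TEAD factors bind.

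Ranbp3l, chr15:8967699-8967948, plus strand: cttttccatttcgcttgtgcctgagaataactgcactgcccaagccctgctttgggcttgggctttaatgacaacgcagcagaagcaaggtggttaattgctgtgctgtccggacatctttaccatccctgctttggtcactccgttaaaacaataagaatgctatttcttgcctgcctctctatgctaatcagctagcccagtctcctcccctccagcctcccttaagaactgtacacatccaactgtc

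Slc6a13, chr6:121300038-121300226, plus strand: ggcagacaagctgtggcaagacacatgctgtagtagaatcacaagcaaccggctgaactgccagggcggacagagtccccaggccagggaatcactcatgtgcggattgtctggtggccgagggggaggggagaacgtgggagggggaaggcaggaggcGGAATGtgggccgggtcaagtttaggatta

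Slc6a20a, chr9:123678886-123679082, minus strand: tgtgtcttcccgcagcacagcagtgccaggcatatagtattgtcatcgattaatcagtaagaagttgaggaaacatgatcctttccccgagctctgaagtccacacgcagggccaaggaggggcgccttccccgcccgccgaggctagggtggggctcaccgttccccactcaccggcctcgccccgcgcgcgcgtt

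GGAATG occurred in the stretch before Slc6a13 and, on either strand, in 12.6% of 32841 promoter windows of 250 bases. CCAAT, the core of the CCAAT box, and GTAAACA, the core bound by forkhead factors such as Foxc1 and Foxd1, occurred on neither strand of the 3 stretches, and in 33.9% and 3.17% of the windows. The stretches before Slc6a13 and Slc6a20a are shorter than these windows, and a match is a description of the letters only. The stretch before Col1a2 is not shown.

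**Figure D1:**
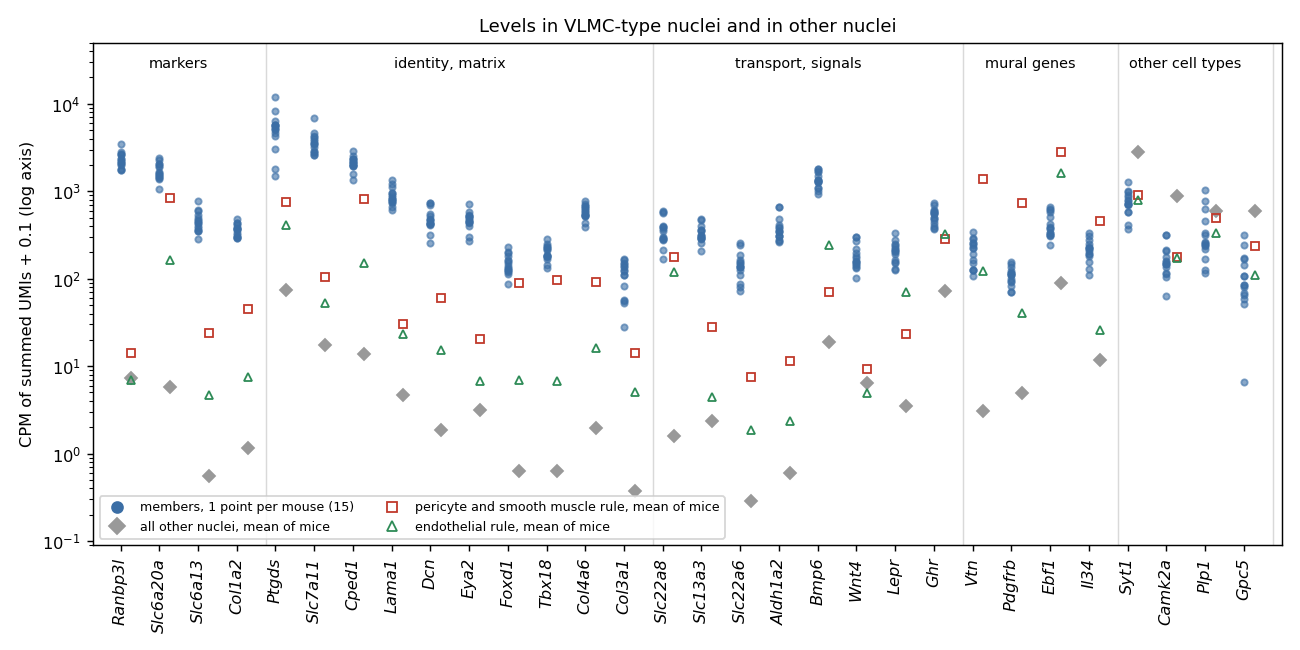
Each column is a gene, and the vertical axis is CPM of summed UMIs plus 0.1 on a log axis. Blue points are the members of 15 mice, and the diamond, square and triangle are means over mice in all other nuclei, in nuclei meeting the pericyte and smooth muscle rule and in nuclei meeting the endothelial rule. The member means of the marker, identity and transport genes drawn here stand above all 3 comparison means. Vtn, Pdgfrb, Ebf1 and Il34 stand below the pericyte and smooth muscle level in 15 of 15 mice. Ranbp3l, Slc6a13 and Col1a2 are genes of the member rule, and Vtn is a gene of the pericyte and smooth muscle rule. The places of these genes come from the choice of nuclei.

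The label was set beside 24 leptomeningeal identity genes outside the rule, a list chosen with earlier results of these data known. All 24 had a mean at least 10 times that of other nuclei, and 22 were higher than in other nuclei in each of the 15 mice. Ptgds, the prostaglandin D synthase secreted into cerebrospinal fluid, was at 5330 ± 2480 CPM against 75.2 CPM, with mice spread from 1496 to 11821 CPM. Slc7a11, the cystine and glutamate exchanger, was at 3679 ± 1084 CPM against 17.4 CPM. Cped1 was at 2119 ± 373 CPM against 13.6 CPM. The transcription factors of meningeal mesenchyme were lower but nearly absent in the pool of all other nuclei, in which a small class weighs little. Foxd1 was at 150 ± 39.1 CPM against 0.532 CPM, Tbx18 at 201 ± 41.5 CPM against 0.534 CPM and Foxc1 at 123.4 ± 29.1 CPM against 0.801 CPM. All 27 mesenchymal transcription factors on the list had a higher mean in members than in other nuclei, and 24 had a higher mean than in nuclei meeting the pericyte and smooth muscle rule. Among genes of at least 100 CPM, the 15 with the highest ratio to other nuclei were, in descending order, Slc6a13, Aldh1a2, Slc22a6, the unnamed transcript Gm30613, Prdm6, Aox3, Col3a1, Tbx18, Col1a2, C1qtnf7, Ranbp3l, Col4a6, Slc6a20a, Foxd1 and Dcn, with ratios between 280 and 1002. Slc6a13, Col1a2 and Ranbp3l are genes of the rule, so their place in that order comes from the choice of members.

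The matrix genes were those of a basement membrane as well as of a fibroblast. Of 25 collagen genes, 24 had a higher mean in members than in other nuclei and 9 reached 100 CPM. Col4a6 and Col4a5, the type IV collagen chains that lie next to each other on the X chromosome, were at 585 ± 104 and 496 ± 91.7 CPM, against 92.8 and 91.0 CPM in nuclei meeting the pericyte and smooth muscle rule. The fibrillar collagen Col3a1 was at 110 ± 45.0 CPM. Lama1, the laminin chain of the pial surface, was at 890 ± 206 CPM against 30.6 CPM in nuclei meeting that rule, where the mural laminin chains Lama4 and Lamc3 were higher (296 and 192 CPM, against 242 ± 70.3 and 113 ± 31.2 CPM in members). Lama1 was higher in members in 15 of 15 mice, while Lamc3 was lower in 14 and Lama4 in 11. These levels are not per length, so they do not rank the genes against each other. In these levels nuclei meeting both rules were counted as members only, while in the shares below they were counted in both classes.

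Transporters of the blood and cerebrospinal fluid border were prominent. Slc22a6 and Slc22a8, the organic anion transporters OAT1 and OAT3, were at 146 ± 52.6 and 364 ± 129 CPM against 0.191 and 1.47 CPM in other nuclei. Slc13a3 and Slc13a4, which carry dicarboxylates and sulfate with sodium, were at 333 ± 73.9 and 284 ± 74.7 CPM against 2.25 and 2.18 CPM. Of 27 transporter genes, 14 had a mean at least 10 times that of other nuclei. Of the 27, 21 had a higher mean in members, and Slc4a4, Slc4a10 and Slc2a13 were among the others, with means of 182, 207 and 243 CPM in members below 508, 353 and 403 CPM in other nuclei.

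Among signalling genes, Aldh1a2, the retinaldehyde dehydrogenase that makes retinoic acid, was at 383 ± 124 CPM against 0.498 CPM, and 16 of 19 retinoid genes had a higher mean in members. Bmp6 was the highest BMP ligand at 1366 ± 281 CPM, above Bmp5 at 232 ± 77.9 CPM and Bmp7 at 169 ± 32.8 CPM by summed counts that are not corrected for gene length. The Wnt ligands Wnt4 and Wnt5a were at 185 ± 60.9 and 190 ± 54.2 CPM, which differed by less than the spread between mice. Growth factor Igf2 was at 144 ± 62.7 CPM, in mice between 34.7 and 280 CPM.

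Receptors for hormones of pregnancy and lactation were sparse. Prlr, the prolactin receptor, had 60 UMIs over all members and was at 13.8 ± 14.3 CPM, below 17.7 CPM in other nuclei. Esr1, the oestrogen receptor alpha, had 33 UMIs, the progesterone receptor Pgr had 38 and the oxytocin receptor Oxtr had 0. The dopamine receptors Drd1 and Drd2 had 3 and 4 UMIs. At these counts no difference between groups could be resolved. Metabolic and stress hormone receptors were higher, with the growth hormone receptor Ghr at 529 ± 109 CPM against 72.6 CPM in other nuclei, the leptin receptor Lepr at 206 ± 57.7 CPM against 3.44 CPM and the glucocorticoid receptor Nr3c1 at 339 ± 49.7 CPM against 142 CPM. The mineralocorticoid receptor Nr3c2 was at 748 ± 120 CPM against 936 CPM.

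The layer genes were uneven. Of the arachnoid genes, Ptgds and Aldh1a2 were high, while Crabp2 and Slc47a1 were at 14.6 ± 8.6 and 16.6 ± 25.5 CPM. The 7 arachnoid barrier genes summed to between 731 and 1028 CPM by mouse, against between 473 and 571 CPM in other nuclei, and most of the sum was the tight junction protein Tjp1 at 687 ± 90.3 CPM. Cdh1 (E-cadherin) was at 8.9 ± 11.8 CPM, Dpp4 at 13.7 ± 15.3 CPM and Krt18 at 0.9 ± 2.1 CPM. Among pial and perivascular genes, Cemip, a hyaluronan-depolymerizing protein, was at 1442 ± 465 CPM and Lama1 was high, while Ngfr was at 3.5 ± 4.6 CPM. Of 6 dural fibroblast genes, Foxp2 (553 ± 92.8 CPM) alone reached 100 CPM, and Dkk2 had 5 UMIs.

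Markers of other cell types were not at 0. The 5 neuronal genes summed to between 567 and 1858 CPM by mouse, against a median of 4852 CPM in other nuclei. Oligodendrocyte genes summed to between 253 and 1870 CPM (median 475 CPM), against a median of 1139 CPM in other nuclei. The medians of 2 other sets were higher in members. Choroid plexus genes summed to between 93.2 and 1986 CPM (median 374 CPM), against a median of 246 CPM in other nuclei. Border-associated macrophage genes summed to between 0 and 352 CPM (median 26.0 CPM), against a median of 7.06 CPM. The 6 pericyte and smooth muscle genes summed to between 125 and 410 CPM, against a median of 7.08 CPM in other nuclei, and most of that was Vtn (vitronectin) at 208 ± 72.4 CPM. Vtn is a gene of the pericyte and smooth muscle rule, but the study's methods also name it as a marker of VLMCs. The part of mural cells in this sum was not tested. The endothelial genes summed to between 64.7 and 518 CPM, against a median of 53.8 CPM. Further, 102 members also met the pericyte and smooth muscle rule, 55 the endothelial, 25 the choroid plexus, 14 the macrophage and 2 the ependymal rule. Scrublet called 73 members (6.26%) doublets, against 7.47% of all barcodes. The number called per library was set in advance from its number of barcodes.

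The members were then divided by Leiden clustering into 10 sub-clusters, as a description of cells that were already chosen. Sub-clusters 1, 2, 3, 4 and 7 held 998 members (85.6%), and none of their 10 leading genes was on the lists of other cell types' markers used here. Those lists do not hold every marker, since Reln, which some neurons also express, led sub-cluster 2 (100 against 16 CPM in the other members) and Atp13a5, a gene of pericytes, was in sub-cluster 3 (391 against 81 CPM). Sub-clusters 5, 6, 8, 9 and 10 held 168 members (14.4%), with listed markers among their leading genes. These were Ttr and Htr2c of choroid plexus in sub-cluster 5, Acta2, Myh11, Mecom and Cldn5 of vessel wall in sub-cluster 6, Rbfox3, Lhfpl3 and Tnr in sub-cluster 8, Mbp in sub-cluster 9 and Mrc1, F13a1, Cd163 and Inpp5d of macrophages in sub-cluster 10. Scrublet called 7.14%, 17.5%, 60.0%, 73.5% and 29.4% of sub-clusters 5, 6, 8, 9 and 10 doublets, against 0%, 2.77%, 0%, 0.758% and 0% of sub-clusters 1, 2, 3, 4 and 7. These 5 are called mixed below for their leading genes alone, since in sub-cluster 5 the share of doublets was about that of all barcodes. Values without these 168 members are an alternative chosen after seeing the data.

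Sub-cluster 5, with 42 nuclei, had the lowest Slc6a13 (4.4 CPM), Slc6a20a (129 CPM) and Ranbp3l (182 CPM) of the 10, while Col1a2, at 693 CPM, was higher than in any other sub-cluster. Its leading genes included Alpl (457 CPM against 1 CPM in the rest), Bmper (479 against 6 CPM) and Moxd1 (368 against 5 CPM) beside the choroid plexus genes, Slc47a1 was at 253 CPM and Cdh1 at 120 CPM. It was left unnamed. Sub-cluster 8, of 35 nuclei, had the lowest Col1a2 (95.8 CPM) and the lowest summed identity genes (4142 CPM, against 8311 CPM in sub-cluster 5).

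The other sub-clusters differed along matrix and layer genes. Sub-cluster 3 (94 nuclei) was led by Nr1h4, Slc1a5, Itih5 (2200 against 455 CPM in the other members), Abca8a and Col15a1. It had 2313 CPM of Lama1 and 3966 CPM of Cemip but 621 CPM of Ptgds. Sub-cluster 4 (132 nuclei) was led by Prdm6, Abi3bp, Sdk1, Alcam (6450 against 1865 CPM) and Bnc2, and had 8409 CPM of Ptgds and 570 CPM of Lama1. Sub-cluster 7 (80 nuclei) was led by Hmcn1, the elastin gene Eln (643 against 63 CPM), Jag1 and Nox4, and had 1412 CPM of the proteoglycan gene Dcn. Ptgds and Lama1 thus ran in opposite order in sub-clusters 3 and 4. The values come from the genes clustered and carry no test.

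Sub-clusters 1 (295 nuclei) and 2 (397 nuclei) held most members and split by mouse rather than by group. Sub-cluster 1 was led by Themis, Tmtc4 and several long noncoding transcripts, and sub-cluster 2 by Reln, Dchs2, Col23a1 and Wnt4. Of the members in either, the share in sub-cluster 1 was 100% in stress RE mice 75 and 77, 96.8% in NP mouse 37 and 96.0% in control RE mouse 72. It was 1.92% in stress RE mouse 70, 2.94% in NP mouse 31, 6.25% in NP mouse 63 and 6.85% in control RE mouse 87. Each group thus held mice at both ends.

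**Figure D2:**
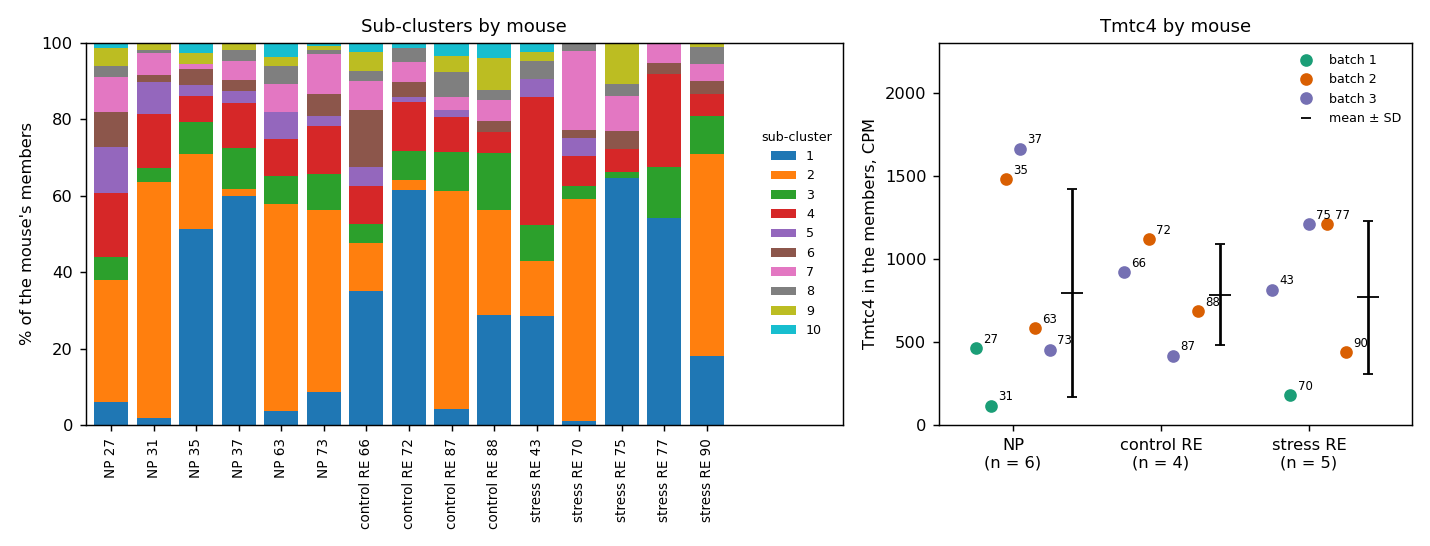
Left, the percent of each mouse's members in each of 10 sub-clusters, stacked to 100, with the mouse number under each bar. Right, Tmtc4 in the members in CPM, with 1 point per mouse coloured by batch and the mean ± SD of each group. Sub-clusters 1 and 2 take turns as the larger share within each group, and Tmtc4 spans 118 to 1662 CPM in NP, 418 to 1116 CPM in control RE and 180 to 1208 CPM in stress RE.

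Tmtc4, a protein of the endoplasmic reticulum that adds mannose to cadherins, was followed as the most abundant leading gene of sub-cluster 1 and was chosen after its values were seen. It ran from 118 to 1662 CPM in the 6 NP mice (median of all 15 mice 685 CPM), from 418 to 1116 CPM in the 4 control RE mice and from 180 to 1208 CPM in the 5 stress RE mice. The 3 groups overlapped over most of their range. In other nuclei of the same libraries Tmtc4 was between 11.9 and 25.1 CPM. Themis was between 22.5 and 347 CPM in members and between 0.214 and 1.02 CPM elsewhere. The 3 mice of batch 1 had Tmtc4 at 463, 118 and 180 CPM. Depth moved with this pattern, since sub-cluster 1 had a median of 2295 UMIs and sub-cluster 2 of 2995 UMIs. Within mice, the shallower members had the higher Tmtc4 CPM in 12 of 15 mice. Wnt4 and Gxylt2, leading genes of sub-cluster 2, were also higher in the shallower members, in 11 and 10 of 15 mice. The part of depth or batch in the pattern was not tested.

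The share of members among nuclei was compared between groups, which bears on whether reproductive experience or postpartum stress went with more or fewer VLMCs in the punch. In the 6 NP mice the share was lowest at 0.792%, had a median of 1.17% and was highest at 1.58%. The 4 control RE mice had 0.393%, 0.736%, 1.03% and 0.694% (mice 66, 72, 87 and 88). The 5 stress RE mice had 0.510%, 1.52%, 0.511%, 0.438% and 0.945% (mice 43, 70, 75, 77 and 90). The groups overlapped, and stress RE mouse 70, the only RE mouse of batch 1, had the second highest share of the 15 mice. For a single library the 95% Wilson interval ran from 0.289% to 0.535% in control RE mouse 66 and from 1.31% to 1.91% in NP mouse 31, which covers counting error only.

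Mean shares were 1.17% ± 0.288 in NP (SD, n = 6), 0.713% ± 0.260 in control RE (n = 4) and 0.785% ± 0.458 in stress RE (n = 5). The mean of control RE less that of NP came to -0.457 percentage points (p = 0.0381 by a two-sided exact permutation over mice, Benjamini-Hochberg adjusted over 3 comparisons p = 0.114, smallest p possible 0.00952). The difference kept its direction within batches, at -0.163 points in batch 2 and -0.608 points in batch 3. Stress RE differed from control RE by 0.0723 points (exact permutation p = 0.810) (smallest p possible 0.0159), and the values within batches 2 and 3 were -0.0232 and -0.200. Stress RE minus NP was -0.385 points (exact permutation p = 0.121, adjusted p = 0.182, smallest p possible 0.00433), with 0.207, -0.186 and -0.808 points within batches 1, 2 and 3. No comparison passed the adjusted threshold, and without the 168 members of the mixed sub-clusters the control RE difference had p = 0.0762 (exact permutation).

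The number of nuclei in the denominator moved with this result. Control RE libraries held 10720 ± 604 nuclei against 7748 ± 1061 in NP libraries, with no overlap between the groups (exact permutation p = 0.00952). The number of members was 77.5 ± 32.4 per control RE mouse and 89.2 ± 17.9 per NP mouse, a difference of -11.7 nuclei (exact permutation p = 0.495). The part of library size in the lower share was not tested.

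**Figure D3:**
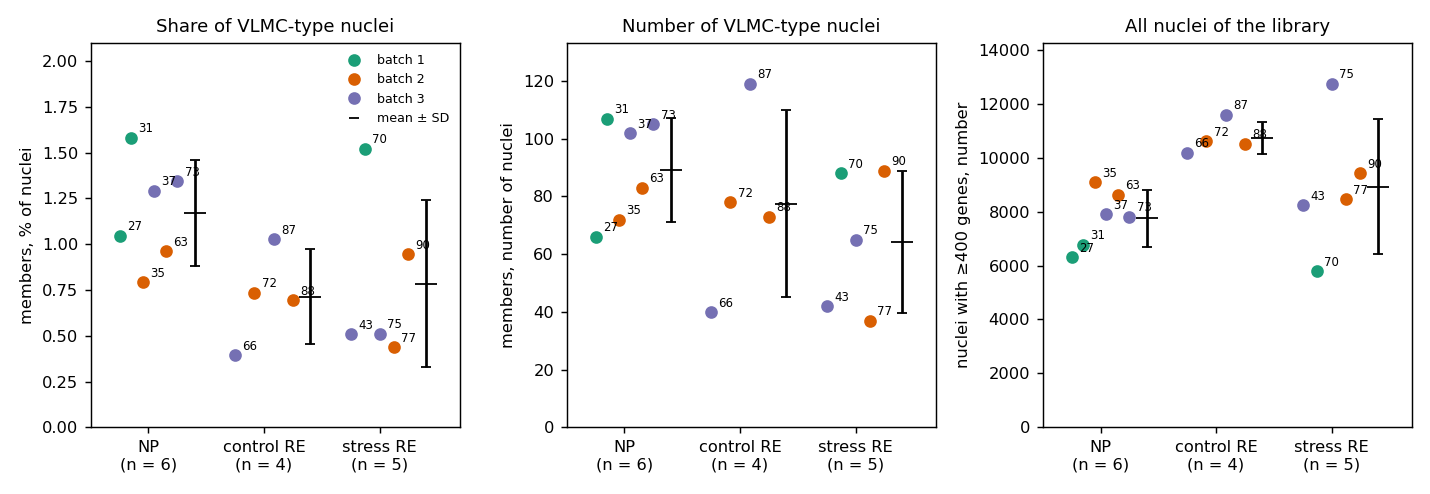
Points are mice, coloured by batch and numbered, with mean ± SD. The panels give members as percent of nuclei, members as a number and all nuclei of the library as a number. The NP mice lie at 0.792% or higher, and the 4 control RE libraries all hold more nuclei than any NP library.

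The share of members was set against the shares of 5 other non-neuronal classes found by rules of the same form, to see whether libraries rich in VLMCs were rich in other border and vessel cells. Over 15 mice, Pearson's r was 0.182 with endothelial cells (permutation p = 0.508, Spearman's rho 0.0679, p = 0.811), 0.273 with pericytes and smooth muscle (p = 0.335, rho 0.264, p = 0.339) and 0.205 with border-associated macrophages (p = 0.4663, rho 0.154, p = 0.587). It was -0.306 with choroid plexus (permutation p = 0.265, rho -0.239, p = 0.387) and -0.251 with ependymal cells (permutation p = 0.370, rho -0.125, p = 0.656). After adjustment over the 5 classes all 5 Pearson p were 0.508 and all 5 rho p were 0.811. Without the 2 mice farthest from the median share the r were 0.560, 0.172, 0.435, -0.147 and 0.120 in the same order of classes. Within batch 2 and batch 3, of 6 mice each, r with endothelial cells was -0.449 and 0.945, with pericytes and smooth muscle -0.432 and -0.00132, with macrophages 0.846 and 0.590, with choroid plexus -0.336 and -0.264, and with ependymal cells -0.330 and 0.156. Batch 1 held too few mice. The relation with endothelial cells therefore took opposite signs in the batches, and none passed the test over all mice. Shares of 1 library add up to a fixed total and are not free of each other.

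Gene expression within the members was compared on UMIs summed per mouse in 5797 genes with enough counts, by edgeR's quasi-likelihood test with Benjamini-Hochberg adjustment over all of them. In control RE minus NP 0 genes passed an adjusted p of 0.05 (0.0%), and at an unadjusted p under 0.05 there were 300 genes (5.18%). In stress RE minus control RE 0 genes passed (0.0%), with 310 at an unadjusted p under 0.05 (5.35%). In stress RE minus NP 0 genes passed (0.0%), with 187 (3.23%). DESeq2 on the same sums passed 0, 3 and 0 genes in the same order, with 220, 228 and 127 at an unadjusted p under 0.05. Its 3 calls, 0.0518% of the genes it adjusted, were Fkbp5, Zbtb16 and Mertk. The median standard error of a log2 fold change was between 0.26 and 0.30. Groups did not overlap in CPM for 1.24% of genes in control RE against NP, 1.45% in stress RE against control RE and 0.242% in stress RE against NP.

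The genes with the smallest p in stress RE minus control RE were Fkbp5, Zbtb16 and Mertk, with lower values in stress RE, and both Fkbp5 and Zbtb16 are on the list of glucocorticoid-responsive genes. Fkbp5, the FK506-binding co-chaperone that dampens the glucocorticoid receptor (chromosome 17, 28399094 to 28517527, minus strand), was at 331, 323, 275 and 377 CPM in control RE mice 66, 72, 87 and 88. In stress RE mice 43, 70, 75, 77 and 90 it was at 165, 172, 208, 179 and 148 CPM. Every stress RE mouse was below every control RE mouse. The NP mice ran from 170 to 308 CPM with a median of 235 CPM and overlapped with both groups. The log2 fold change was -0.94 (SE 0.18), with an edgeR adjusted p of 0.179 and a DESeq2 adjusted p of 0.0193. Without the 168 members of the mixed sub-clusters it was -1.11, with an edgeR adjusted p of 0.0659 and a DESeq2 adjusted p of 0.0114. With batch as a term it was -0.91 (edgeR adjusted p = 0.536), at a marker cut of 5 UMIs -0.93 (edgeR adjusted p = 0.440) and without batch 1 -0.90 (edgeR adjusted p = 0.680).

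Zbtb16, a zinc finger transcription factor induced by glucocorticoids (chromosome 9, 48654297 to 48836222, minus strand), was at 309, 421, 463 and 703 CPM in the 4 control RE mice. It was at 131, 200, 162, 73.6 and 289 CPM in the 5 stress RE mice, again with no overlap, and between 156 and 356 CPM in NP. The log2 fold change was -1.41 (SE 0.28), with an edgeR adjusted p of 0.179 and a DESeq2 adjusted p of 0.0193. Without the mixed sub-clusters the fold change was -1.29 with an edgeR adjusted p of 0.551, and DESeq2 gave -1.33 with an adjusted p of 0.192, so its call was lost. Leaving out stress RE mouse 90, the highest of its group, gave a log2 fold change of -1.69 with an edgeR adjusted p of 0.0415, the single call among the fits with 1 mouse left out.

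In all nuclei that are not members, pooled, Fkbp5 averaged 76.3 ± 10.8 CPM in control RE, 59.2 ± 6.6 CPM in stress RE and 63.9 ± 6.5 CPM in NP, and the stress RE and control RE mice overlapped. Zbtb16 averaged 318 ± 46.8, 248 ± 72.998 and 268 ± 48.1 CPM in the same order. The vessel classes, whose levels leave out all nuclei that are also members, separated in Zbtb16 as the members did. In nuclei meeting the endothelial rule Zbtb16 was between 339 and 945 CPM in control RE and between 103 and 334 CPM in stress RE, and in those meeting the pericyte and smooth muscle rule between 200 and 410 CPM and at most 129.2 CPM, without overlap in either class. Fkbp5 overlapped in both classes, at 58.5 to 167 CPM in control RE and 34.5 to 91.5 CPM in stress RE in endothelial nuclei. The separation of stress RE from control RE in Zbtb16 was thus seen in these classes too. In the members it ran from 309 to 703 CPM in control RE and from 73.6 to 289 CPM in stress RE. Whether any of these differences was larger in the members or in these classes was not tested. The pericyte and smooth muscle values rest on few UMIs in some mice, and the share of all genes without overlap was not computed for these classes.

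**Figure D4:**
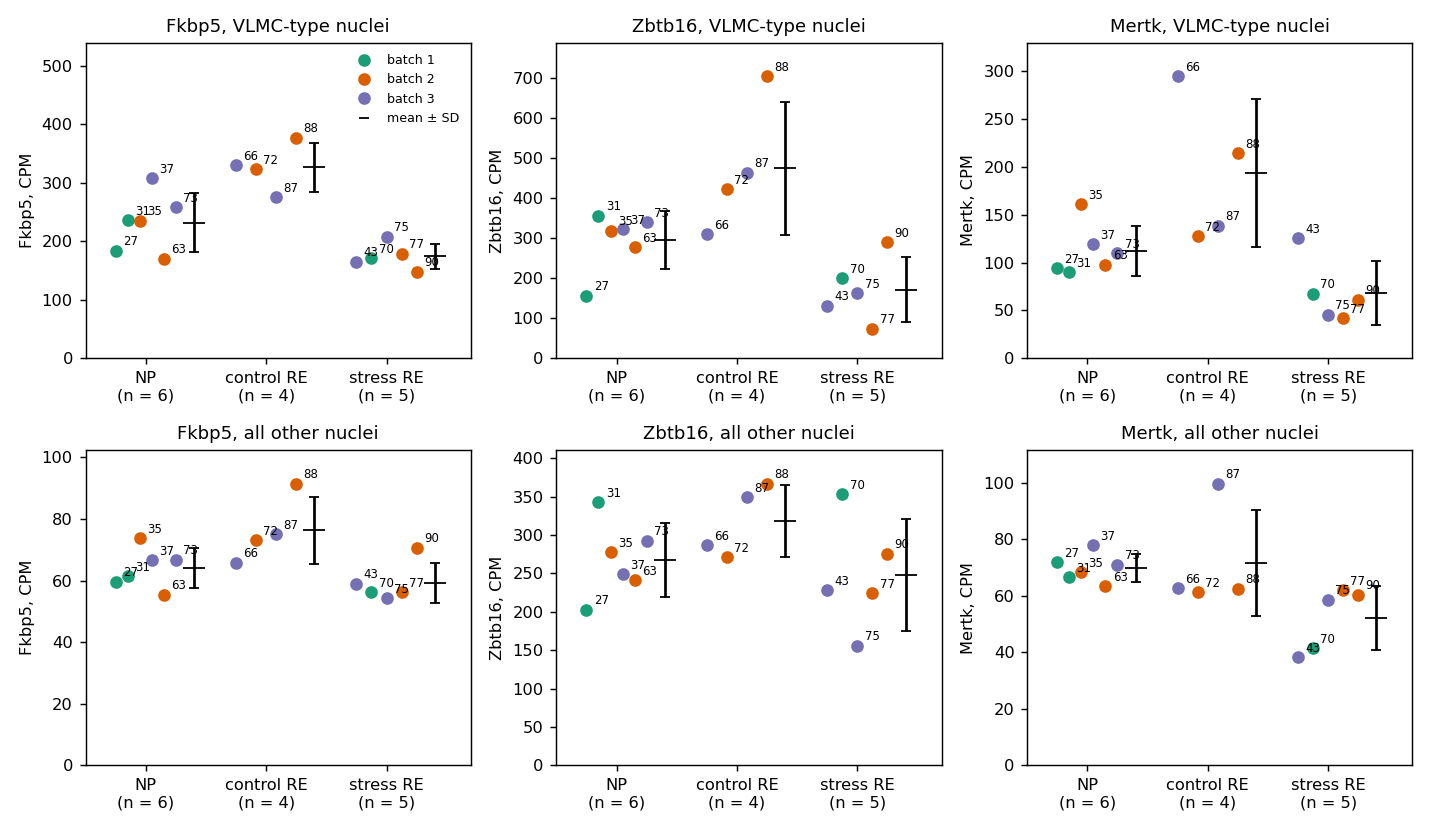
Fkbp5, Zbtb16 and Mertk in CPM of summed UMIs, in the members (top) and in all other nuclei (bottom), with 1 numbered point per mouse coloured by batch and the mean ± SD of each group. In the members the stress RE mice lie below the control RE mice without overlap for all 3 genes. These genes were drawn for their small p in the members, so this goes with the choice. In the other nuclei the groups overlap for all 3. For Mertk, control RE mouse 72 and stress RE mouse 43 are at 127 and 125 CPM in the members. In the other nuclei, control RE mouse 72 is at 61.3 CPM and stress RE mouse 77 at 62.0 CPM. For Fkbp5 and Zbtb16 there, stress RE mice 90 and 70 are at 70.6 and 353 CPM, and control RE mice 66 and 72 at 65.8 and 271 CPM. The vessel classes are not drawn, and in both of them Zbtb16 also separated stress RE from control RE.

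Of 19 glucocorticoid-responsive genes, 8 had enough counts to be tested and 0 passed in either direction in any comparison by edgeR. In stress RE minus control RE the median log2 fold change of the 8 was -0.36, beside 0.00 over all genes tested, and 6 of 8 were negative. It ran from -0.46 to -0.15 with 1 mouse left out, the last without stress RE mouse 90. It was -0.08 with doublets removed by Scrublet, -0.19 with oligodendrocyte UMIs limited and -0.23 without the mixed sub-clusters. Tsc22d3 (GILZ) was at -1.58 (unadjusted p = 0.026 by edgeR) and Sgk1 at -0.53, while Errfi1 was at 0.22 and Mt1 at 0.03. In control RE minus NP the median was 0.21, with Fkbp5 at 0.50 and Zbtb16 at 0.71, and in stress RE minus NP it was -0.20, with Fkbp5 at -0.43 and Zbtb16 at -0.70. With 1 mouse left out these medians ran from 0.10 (without control RE mouse 88) to 0.36 (without control RE mouse 87) and from -0.21 to 0.01 (without NP mouse 37). The first was 0.05 without the filter on low counts, and the second was -0.09 with doublets removed and -0.10 with oligodendrocyte UMIs limited. Control RE thus had the highest and stress RE the lowest mean of both genes, with NP between. The comparisons share groups, so their values are not independent of each other.

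Mertk (chromosome 2, 128698956 to 128802894, plus strand), a receptor by which phagocytes take up dying cells, was at 295, 127, 139 and 214 CPM in control RE mice. It was at 125, 67.5, 45.4, 42.0 and 61.1 CPM in stress RE mice. The NP mice ran from 90.1 to 161 CPM and overlapped with both groups. The log2 fold change in stress RE minus control RE was -1.44 (SE 0.30, edgeR adjusted p = 0.179, DESeq2 adjusted p = 0.0193). The 4 border-associated macrophage genes summed to between 4.7 and 352 CPM in the control RE mice, between 6.9 and 214 CPM in NP and between 0 and 26.0 CPM in stress RE. Control RE mouse 66 had the highest sum and the highest Mertk of all mice, and control RE mouse 88 had the lowest sum of its group and the second highest Mertk. The microglial genes summed to between 93.9 and 354 CPM in control RE, between 67.0 and 175 CPM in NP and between 50.6 and 273 CPM in stress RE, with mouse 88 the highest and stress RE mouse 43 the next. The part of either cell type in the Mertk result was not tested. Without the mixed sub-clusters, which include the macrophage-led one, the Mertk log2 fold change was -1.37, with an edgeR adjusted p of 0.212, and DESeq2 gave an adjusted p of 0.164.

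In the other direction, the smallest p in stress RE minus control RE were those of Cbx1, F3 and Spaca6. F3, tissue factor, which starts coagulation and is made by perivascular fibroblasts, was between 28.8 and 46.6 CPM in control RE, between 42.0 and 143 CPM in stress RE and between 57.8 and 156 CPM in NP. Without the mixed sub-clusters its log2 fold change in control RE minus NP was -0.90. Its control RE mice lay below all NP mice and overlapped with stress RE by 1 mouse. The log2 fold change was 1.45 (SE 0.36, edgeR adjusted p = 0.565) for stress RE minus control RE and -1.37 (SE 0.34, edgeR adjusted p = 0.587) for control RE minus NP. Cbx1, a heterochromatin protein, had a log2 fold change of 0.94 (SE 0.23, edgeR adjusted p = 0.565) and Spaca6 of 0.71 (SE 0.18, edgeR adjusted p = 0.719).

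Of the 24 identity genes 22 were tested, and 0 passed in any comparison. Their summed level overlapped between groups, at 12503 to 19102 CPM in control RE, 15950 to 22436 CPM in NP and 16926 to 28738 CPM in stress RE. In control RE minus NP 20 of 22 were negative, with a median log2 fold change of -0.27 beside 0.01 over all genes. For stress RE minus control RE 21 of 22 were positive, with a median of 0.46 beside 0.00, which was 0.30 without the mixed sub-clusters and 0.26 without control RE mouse 87. For stress RE minus NP the median was 0.07, and it ran from 0.03 to 0.18 with 1 mouse left out. Eya2, a transcriptional coactivator, had the lowest p of them in control RE minus NP, at 353 ± 76.5 CPM in control RE and 539 ± 91.5 CPM in NP with no overlap (log2 fold change -0.57, SE 0.16, edgeR adjusted p = 0.663), and its fold change was -0.34 without the mixed sub-clusters. In stress RE it was at 489 ± 57.2 CPM. All 19 tested mesenchymal transcription factors had a negative log2 fold change in control RE minus NP, with a median of -0.24. In stress RE minus control RE 14 of 19 had a positive one, with a median of 0.29. The list of transcription factors shares Bnc2, Eya2, Foxc1, Foxd1 and Tbx18 with the identity genes, so the results of these lists are not independent. Without the mixed sub-clusters the medians of the transcription factors were -0.12 and 0.14, without control RE mouse 72 the first was -0.38, and without control RE mouse 66 the second was 0.19.

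Neuronal markers were higher in the members of control RE mice than in those of most NP mice. The 5 neuronal markers summed to between 1315 and 1661 CPM in control RE, between 753 and 1416 CPM in NP and between 567 and 1858 CPM in stress RE. The genes with the smallest p toward higher levels in control RE than in NP were Add2 (log2 fold change 1.37, SE 0.30), Syt7 (0.84, SE 0.19) and Sorl1 (1.03, SE 0.24), each with an edgeR adjusted p of 0.514. Add2, a neuronal adducin, and Syt7, a synaptotagmin, were at 50.2 and 100 CPM in members and at 267 and 401 CPM in other nuclei. With doublets removed by Scrublet the median log2 fold change of the neuronal markers in control RE minus NP went from 0.52 to -0.05, and that of the identity genes from -0.27 to -0.14. The rate of removal grew with library size, and took between 7.5% and 10.9% of members in control RE mice and between 2.86% and 6.94% in NP mice. With 1 mouse left out the neuronal median ran from 0.25 to 0.62. Without the mixed sub-clusters the neuronal median was 0.11, and the log2 fold changes of Syt7 and Sorl1 were 0.45 and 0.59. With doublets removed Add2 was at 0.76 and Syt7 at 0.31, and without control RE mouse 87 Sorl1 was at 0.68. Toward lower levels in control RE than in NP the smallest p were those of F3, Ltbp3 and Eya2. Ltbp3, which binds latent TGF-beta, was between 23.3 and 35.9 CPM in control RE and between 34.7 and 90.1 CPM in NP (log2 fold change -1.09, SE 0.31, edgeR adjusted p = 0.663), and the groups overlapped.

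For control RE minus NP, stress RE minus control RE and stress RE minus NP, the median log2 fold change was 0.01, 0.02 and -0.01 over 21 collagens, -0.24, 0.23 and 0.01 over 22 other matrix genes, -0.14, 0.03 and -0.04 over 22 transporters, -0.10, 0.16 and 0.06 over 8 retinoid genes, -0.20, 0.28 and 0.05 over 21 growth factor genes, -0.04, -0.12 and 0.01 over 9 hormone receptors and 0.01, -0.16 and -0.14 over 14 immune genes. None of their members passed by edgeR with the filter on low counts or by DESeq2. Some genes of these lists, such as Lama1, Dcn, Col3a1, Slc7a11 and Pdgfra, are also on the identity list. Slc6a20a, the marker outside the rule, had log2 fold changes of -0.28 (SE 0.18), 0.14 (SE 0.19) and -0.14 (SE 0.17).

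In stress RE minus NP the smallest p were those of Dcaf1, Medag and Phip toward higher levels and Rad51b, Slc4a10 and Plpp3 toward lower levels, each with an edgeR adjusted p of 1.00. Without the filter on low counts edgeR gave Slc4a10 an adjusted p of 0.000832, Rad51b 0.00252 and Plpp3 0.0486. Without the mixed sub-clusters their log2 fold changes were -0.40, -0.70 and -0.27, against -1.05, -1.25 and -0.76 with all members. The choroid plexus genes summed to between 128 and 1986 CPM in the NP mice, with 3 mice above 1000 CPM, and to between 93.2 and 801 CPM in stress RE. Of these 3 NP mice, mouse 27 had the highest Slc4a10 of NP (524 CPM), while mice 35 and 73 had the lowest (194 and 193 CPM). Rad51b and Plpp3 were highest in NP mice 31 and 63 (210 and 895 CPM), where the choroid plexus genes summed to 374 and 202 CPM. The part of the choroid plexus genes in these 3 results was not tested. Medag, a gene of mesenteric adipocyte precursors, was between 61.1 and 96.8 CPM in stress RE and between 27.7 and 69.4 CPM in NP. Plpp3, a lipid phosphatase, was between 257 and 441 CPM in stress RE and between 348 and 895 CPM in NP. The groups overlapped for both genes.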

How the data were processed

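Nuclei from frozen punches were profiled by 10x 3′ single-nucleus RNA-seq, 1 library per mouse. Per the labels, the authors made the deposited matrices with Cell Ranger 7.1.0, and the values are raw UMI counts of called barcodes. The study's methods name the mm10 reference, and the submitters' processing notes also list GRCm39. Doublet removal and ambient RNA correction described by the authors are not in these counts. Members were barcodes with at least 400 genes, at least 3 UMIs of Col1a2, Slc6a13 and Ranbp3l, at most 5 of Slc1a2, at most 1 of Gad1 and Gad2 and at most 1 of Slc17a7. The members and the gene lists were chosen with earlier results of these data known.

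Groups were taken from the labels. Members' counts were summed per mouse and fitted in all 15 mice by edgeR 4.0.16 (quasi-likelihood test, TMM, default filter on low counts) under R 4.3.3, with Benjamini-Hochberg adjustment over all 5797 genes and a threshold of 0.05. DESeq2 1.42.0 was an alternative. Shares were compared by exact permutation tests over mice, and correlations with 100000 resamples (scipy 1.17.1). Sub-clusters came from scanpy 1.11.5 (1000 variable genes, 20 principal components, 15 neighbours, Leiden resolution 0.5), with no joining of libraries. Doublets were not removed in the main analysis, and Scrublet removal, at 0.8% per 1000 barcodes, was an alternative. It took the barcodes with the highest scores up to that rate, so larger libraries lost a larger share. Genes named were the 4 markers, list genes of at least 100 CPM, the 15 with the highest ratio to other nuclei and, where fewer than 5 genes passed, the 3 with the smallest p in each direction per comparison. Genes below 100 CPM and leading genes of sub-clusters were named after their values were seen. On simulated counts for control RE minus NP, recovery was 64 of 100 genes at a log2 change of 1 and 96 of 100 at a log2 change of 2, with 7 false calls. The simulation gave all genes the same spread, held no batch differences and changed only genes with enough counts. Recovery in the measured counts can therefore be lower. Intervals cover counting error only. On replicates, the labels give a batch for each library and say that each library is a separate mouse.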

Additional observations from a re-analysis of the deposited data

Results flagged for a closer look

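Of 66 groups of 4 to 6 mice tested for a mouse standing apart from the others by Dixon's criterion, 4 did so, and chance alone flags about 1 in 20. Eya2 was at 717.8 CPM in the members of NP mouse 37, and the nearest NP mouse was at 533.4 CPM. Cbx1 was at 46.5 CPM in the same mouse, and the nearest was at 69.13 CPM. Sorl1 was at 146.9 CPM in control RE mouse 87, and the nearest control RE mouse was at 86.26 CPM. Spaca6 was at 205.3 CPM in stress RE mouse 70, and the nearest stress RE mouse was at 149.3 CPM.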

How the results depend on the processing

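The share difference of control RE minus NP (-0.457 points, unadjusted exact permutation p = 0.0381) kept its direction. At a cut of 5 UMIs it passed 0.05 no longer (-0.383, exact permutation p = 0.0762). Permuted within batches 2 and 3 it was -0.385, with an exact permutation p of 0.0556. That is the smallest p this permutation could give, so it could not pass 0.05. Settings chosen after seeing the data did not pass either. These were without batch 1 (-0.385, exact permutation p = 0.114), without sub-clusters led by other cell types (-0.396, p = 0.0762) and as a number of nuclei (-11.7, p = 0.495). With 1 mouse left out it ran from -0.562 to -0.351, and 7 of 10 such values (without NP mice 27, 31, 37 or 73 or control RE mice 66, 72 or 88) had p between 0.0635 and 0.0952 by exact permutation. Stress RE minus control RE changed sign within batches 2 and 3 and without batch 1 (both -0.112), without control RE mouse 66 (-0.0342) and as a number of nuclei (-13.3), and ran from -0.112 (without stress RE mouse 70) to 0.177 with 1 mouse left out. Stress RE minus NP ran from -0.569 (without stress RE mouse 70, exact permutation p = 0.0190) to -0.298. The correlation with endothelial cells was 0.560 without the 2 farthest mice (unadjusted permutation p = 0.0483), that with pericytes and smooth muscle 0.517 at a cut of 2 UMIs (unadjusted permutation p = 0.0462) and -0.111 without nuclei meeting both rules, that with macrophages -0.0275 at a cut of 2 UMIs, and that with ependymal cells 0.120 without the 2 farthest mice. Without a filter on low counts edgeR called 20, 23 and 18 genes for control RE minus NP, stress RE minus control RE and stress RE minus NP, against 0 each. In stress RE minus control RE DESeq2 called 3, and 1 without the mixed sub-clusters, and leaving out 1 mouse gave 0 to 1. With batch as a term edgeR called 0 genes in each comparison, and its adjusted p for Zbtb16 and Mertk in stress RE minus control RE were 0.536 and 0.643. The causes were not tested. Alternatives were run for the genes with the smallest p in each direction of each comparison, and none of those changed sign. Without the filter on low counts Fkbp5, Zbtb16, Mertk and F3 (stress RE minus control RE), Add2 and F3 (control RE minus NP) and Slc4a10, Rad51b and Plpp3 (stress RE minus NP) passed. No paired analysis was possible because the mouse numbers are not shared between groups. Between 37 and 119 members per mouse limit the precision of low genes.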
